A study of Mus musculus with 4 samples.

Results

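Alveolar macrophages of Lmna-knockout mice, in which Vav1-cre drives the deletion, were described cell by cell, with alveolar macrophages of WT lungs beside them. Members were chosen by their counts of the gate genes below, from 2 knockout libraries, on raw unique molecular identifiers (UMIs, 1 per captured RNA molecule). A cell needed at least 200 detected genes and at most 10% of its UMIs from mitochondrial genes. It also needed at least 1 UMI of at least 4 of the 6 genes Plet1, Car4, Krt79, Atp6v0d2, Marco and Ear1, and no UMI of Cd79a or Cd3e. The gate held 73 cells, 47 of 3769 kept cells in knockout 1 and 26 of 3591 in knockout 2, out of 15181 kept cells in the series. The same gate held 195 of 3941 kept cells in WT 1 and 196 of 3880 in WT 2. Knockout mice were Lmna-flox/flox Vav1-cre+/-, and WT mice were Lmna-flox/flox Vav1-cre-/-, so both groups carried the floxed alleles and only the knockout mice carried Cre. All were C57BL/6J mice aged 10 weeks, with 2 mice and 2 libraries per genotype, and live CD45.2+ lung cells were sorted for 3-prime single-cell RNA sequencing. Vav1-cre acts in blood-forming cells and all of their descendants, so other immune cells of the same lungs were targeted too, and loss of Lmna and presence of Cre cannot be told apart here. The labels do not give the deleted exons.

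Alveolar macrophages live on the air side of the lung, where they take up surfactant lipid, inhaled particles and dying cells and break them down in lysosomes. They settle in the lung around birth and renew themselves locally, and GM-CSF, TGF-beta and the lipid-sensing receptor PPAR-gamma keep up their identity. Lamins A and C, both made from Lmna, form a filament layer under the inner nuclear membrane that stiffens the nucleus, and p53 is the transcription factor that responds to DNA damage and halts the cell cycle through targets such as Cdkn1a.

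The genes whose spread was followed were Lmna, Cdkn1a, Gpnmb, Mmp12 and AA467197. Cdkn1a encodes the cell cycle inhibitor p21, Gpnmb a transmembrane glycoprotein of lysosome-rich macrophages, and Mmp12 the macrophage elastase, a secreted protease. AA467197, also known as Nmes1, encodes a small mitochondrial protein. Stretches around transcription starts are shown because Mmp12 and AA467197 were often detected in the same knockout cells and Cdkn1a went with other p53 targets. Each runs from 250 bases before to 50 after a RefSeq start, 5′ to 3′ on the gene's own strand in GRCm38.p6, with searched motifs in capitals.
AA467197, chr2:122637637-122637936, plus strand: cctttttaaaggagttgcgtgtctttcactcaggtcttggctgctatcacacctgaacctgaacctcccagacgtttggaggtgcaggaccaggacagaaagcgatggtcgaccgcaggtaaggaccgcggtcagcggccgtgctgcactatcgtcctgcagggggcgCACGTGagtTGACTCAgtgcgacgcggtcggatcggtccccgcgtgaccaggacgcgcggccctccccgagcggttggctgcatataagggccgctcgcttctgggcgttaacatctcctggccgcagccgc
Mmp12, chr9:7347124-7347423, plus strand: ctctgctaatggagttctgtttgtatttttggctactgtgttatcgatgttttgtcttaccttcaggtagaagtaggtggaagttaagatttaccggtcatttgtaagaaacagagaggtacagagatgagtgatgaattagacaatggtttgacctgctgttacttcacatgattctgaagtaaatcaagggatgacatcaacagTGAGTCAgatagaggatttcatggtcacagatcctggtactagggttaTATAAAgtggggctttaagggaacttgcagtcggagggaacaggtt
Cdkn1a, chr17:29090729-29091028, plus strand: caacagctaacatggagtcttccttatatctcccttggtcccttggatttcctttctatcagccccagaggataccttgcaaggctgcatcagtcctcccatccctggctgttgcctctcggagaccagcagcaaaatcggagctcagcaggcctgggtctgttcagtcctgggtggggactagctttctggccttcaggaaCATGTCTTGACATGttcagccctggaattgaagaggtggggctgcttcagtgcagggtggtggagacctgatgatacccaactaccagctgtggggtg
Motifs were searched on both strands, and none of the matches shown overlapped another. The AP-1 motif was searched as TGANTCA, and it had 1 match in the AA467197 stretch and 1 in the Mmp12 stretch. Stretches of other followed genes that are not shown held it too, with 1 match in that of Gpnmb and 1 in the upstream one of the 2 Lmna stretches. The E-box was searched as CACGTG, with 1 match in the AA467197 stretch alone of the 3 shown. A TATA box, searched as TATAAA, had 1 match in the Mmp12 stretch. A pair of p53 core motifs, searched as CATGNNNNNNCATG, had 1 match in the Cdkn1a stretch, which belongs to the upstream of its 2 listed starts. Mmp12 also has 2 listed starts, and the other had no match to any of the 4 motifs. Among 32851 promoter stretches of the same length, 7.81% held the AP-1 motif, 7.15% the E-box, 13.6% the TATA box and 0.712% the pair of p53 cores.

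Knockout alveolar macrophages were a smaller share of the sorted cells. The gated share was 1.25% in knockout 1 (exact 95% interval 0.918 to 1.65) and 0.724% in knockout 2 (0.473 to 1.06), against 4.95% in WT 1 (4.29 to 5.67) and 5.05% in WT 2 (4.38 to 5.79). The mean share was 0.986% ± 0.370 in knockout lungs and 5.0% ± 0.0732 in WT lungs (SD, n = 2 each), which is 5.07-fold lower in knockout. Both knockout values lay under both WT values, and the two-sided exact permutation test gave p = 0.333, the smallest that 2 libraries against 2 allow. The intervals cover counting error only. A lung with fewer such cells and a lung with more of the other sorted cells give the same share.

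Among gated knockout cells, 32 in knockout 1 and 19 in knockout 2 had all 6 gate genes, 9 and 6 had 5 of them, and 6 and 1 had 4. Just outside the gate, 3 cells of knockout 1 and 1 of knockout 2 had 3 gate genes, against 4 in WT 1 and 10 in WT 2. The exclusion by Cd79a or Cd3e, markers of B and T cells, removed 3 cells in knockout 1, 7 in knockout 2, 32 in WT 1 and 34 in WT 2 that met the other criteria. The median gated cell had 13692 UMIs in knockout 1 and 16842 in knockout 2, against 16819 in WT 1 and 13649 in WT 2. In knockout 1, 8 of the 47 gated cells had under 5000 UMIs, the shallowest 757, while no gated cell of knockout 2 did and 6 and 10 did in WT 1 and WT 2. Libraries shared 2 to 7 barcodes in each pair, and none of the shared barcodes was a gated knockout cell.

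The cells carried markers of alveolar macrophages that the gate did not use. Chil3, a chitinase-like protein abundant in these cells, was found in every cell thinned to a common depth. Its median was 113 UMIs in knockout 1 and 109 in knockout 2, against 119.5 in WT 1 and 125 in WT 2. Siglecf, Fabp1, Mrc1, Ear2, Lpl and Cidec were present too, but each was lower in both knockout libraries than in both WT libraries. Unscaled, Siglecf stood at 117 and 119 CPM in knockout and 149 and 169 in WT. Cidec stood at 123 and 99.4 unscaled CPM in knockout and 271 and 293 in WT. Itgax overlapped, at 349 and 422 unscaled CPM in knockout and 419 and 349 in WT. Markers of C1q-high interstitial macrophages were at or near 0 in knockout cells, with 0 UMIs of C1qa and 1 of C1qb in knockout 1 and none of either in knockout 2. In WT, which had more gated cells, C1qa and C1qb had 1 and 6 UMIs in WT 1 and 15 and 25 in WT 2. The defining monocyte genes Ly6c2 and Ccr2 had 1 and 2 UMIs in knockout 1 and 3 of each in knockout 2. Both were higher per total in WT. Unscaled, Ly6c2 stood at 1.62 and 6.63 CPM in knockout and 17.5 and 13.9 in WT. Ccr2 stood at 3.25 and 6.63 unscaled CPM in knockout and 32.2 and 38.7 in WT. Epithelial markers summed to 234 CPM in knockout 1 and 148 in knockout 2, against 208 in WT 1 and 150 in WT 2. Monocyte markers summed to 210 and 360 CPM in knockout libraries, against 756 and 973 CPM in WT libraries, and most of that was Fn1, fibronectin, with 185 and 281 CPM in knockout and 617 and 773 CPM in WT. Neutrophil markers summed to 81.2 and 99.4 CPM in knockout and 261 and 142 CPM in WT. Gated cells were flagged when they had at least 2 UMIs of each of at least 2 markers of the same other type. The types were B, T, NK, epithelial, neutrophil and interstitial macrophage. Flagged cells numbered 9 in knockout 1, 4 in knockout 2, 41 in WT 1 and 25 in WT 2, and they were left out as an alternative only.

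Lmna RNA was detected in fewer of the knockout than of the WT cells. To compare cells of unequal depth, each gated cell was thinned to 8686 UMIs, which kept 35 cells of knockout 1, 26 of knockout 2, 180 of WT 1 and 176 of WT 2 and left out 12 shallower knockout cells and 35 WT cells. Lmna was detected in 42.9% of thinned cells in knockout 1 (exact 95% interval 26.3 to 60.6) and 46.2% in knockout 2 (26.6 to 66.6), against 90.0% in WT 1 and 88.6% in WT 2. Before thinning, 20 of 47 gated cells of knockout 1 and 16 of 26 of knockout 2 had an Lmna UMI. After it, the median knockout cell had 0 Lmna UMIs and the highest had 3 in knockout 1 and 5 in knockout 2, whereas the median WT cell had 3 in both libraries and the highest had 10 and 9. B cells, which served as a level for free RNA in droplets, showed Lmna in 1.48% and 1.79% of cells in knockout libraries and 3.66% and 3.95% in WT libraries, at median depths of 3454, 3859, 3938 and 3940.5 UMIs. In summed counts Lmna (chr3:88480147-88509956, GRCm38, minus strand) stood at 58.9 CPM in knockout 1 and 86.1 in knockout 2, against 377 in WT 1 and 332 in WT 2, a fold of 4.89 between the means. One cell held 11 of the 38 Lmna UMIs of knockout 2. Counts taken at the 3-prime end can come from RNA that lacks deleted exons, so they do not show how many cells recombined.

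Cdkn1a was detected in most cells of both genotypes, and its variance over the mean was larger in knockout cells. At the common depth it was found in 97.1% of cells in knockout 1 (85.1 to 99.9) and 84.6% in knockout 2 (65.1 to 95.6), against 86.1% in WT 1 (80.2 to 90.8) and 83.0% in WT 2 (76.6 to 88.2). Cells of knockout 1 ran from 0 through a median of 4 to 44 Cdkn1a UMIs and cells of knockout 2 from 0 through 5 to 39, against 0 through 3 to 32 in WT 1 and 0 through 3 to 20 in WT 2. The medians are close and the upper ends overlap, while the variance over the mean was 10.6 and 10.1 in knockout libraries and 4.50 and 3.68 in WT libraries. That ratio rises with the mean, which was 8.03 and 7.96 UMIs in knockout and 3.89 and 3.68 UMIs in WT, and the variance over the squared mean was closer, at 1.32 and 1.26 in knockout and 1.16 and 1.002 in WT. The 5 highest cells held 48.0% of all Cdkn1a UMIs in knockout 1 and 53.6% in knockout 2, among many fewer cells than in WT. Summed Cdkn1a was 932 and 979 CPM in knockout and 430 and 400 CPM in WT, 2.30-fold higher.

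Gpnmb was detected in nearly all knockout cells, and its medians were higher than in WT. It was detected in 97.1% of thinned cells in knockout 1 and 100% in knockout 2 (86.8 to 100), against 71.7% in WT 1 (64.5 to 78.1) and 61.9% in WT 2 (54.3 to 69.1). The median cell had 5 Gpnmb UMIs in knockout 1 and 4 in knockout 2, against 2 in WT 1 and 1 in WT 2, with ranges of 0 to 11, 1 to 17, 0 to 15 and 0 to 13. Its variance over mean was 1.14 in knockout 1 and 3.61 in knockout 2, against 2.82 and 2.86 in WT. Summed Gpnmb was 533 and 546 CPM in knockout libraries and 277 and 195 CPM in WT libraries.

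Mmp12 and AA467197 were detected in some knockout cells and not in others. Mmp12 was detected in 51.4% of thinned cells in knockout 1 (34.0 to 68.6) and 46.2% in knockout 2 (26.6 to 66.6), against 5.0% in WT 1 (2.31 to 9.28) and 3.98% in WT 2 (1.61 to 8.02). The highest cell had 20 Mmp12 UMIs in knockout 1 and 68 in knockout 2, against 6 in WT 1 and 1 in WT 2. AA467197 was detected in 34.3% of cells in knockout 1 (19.1 to 52.2) and 57.7% in knockout 2 (36.9 to 76.6), against 1.11% in WT 1 (0.135 to 3.96) and 1.70% in WT 2 (0.353 to 4.90), with highest cells of 23, 11, 5 and 2 UMIs. In B cells Mmp12 was found in 0.227% and 0.224% of cells of knockout libraries and in none of 875 and 734 cells of WT libraries, and AA467197 in 1.02% and 0.560% of B cells in knockout and 0.343% and 0.136% in WT. Those B cell shares were read at the lower depths given above and lie far under the shares in gated knockout cells.

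The summed Mmp12 level rested on few cells. Before thinning, 1 cell of knockout 2 held 158 of its 329 Mmp12 UMIs, and the library's unscaled level of 727 CPM becomes 396 CPM without that cell. In knockout 1 the highest cell held 50 of 196 UMIs, and 318 CPM becomes 247 CPM without it. Scaled as in the fit across genes, Mmp12 stood at 330 and 745 CPM in knockout and 13.7 and 3.62 CPM in WT. AA467197 stood at 293 and 328 CPM in knockout and 4.27 and 4.71 CPM in WT, and 11 of the 14 UMIs in WT 1 came from 1 cell. The levels of all 5 genes are a description, since the genes were picked with earlier results of these data known.

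**Figure D1:**
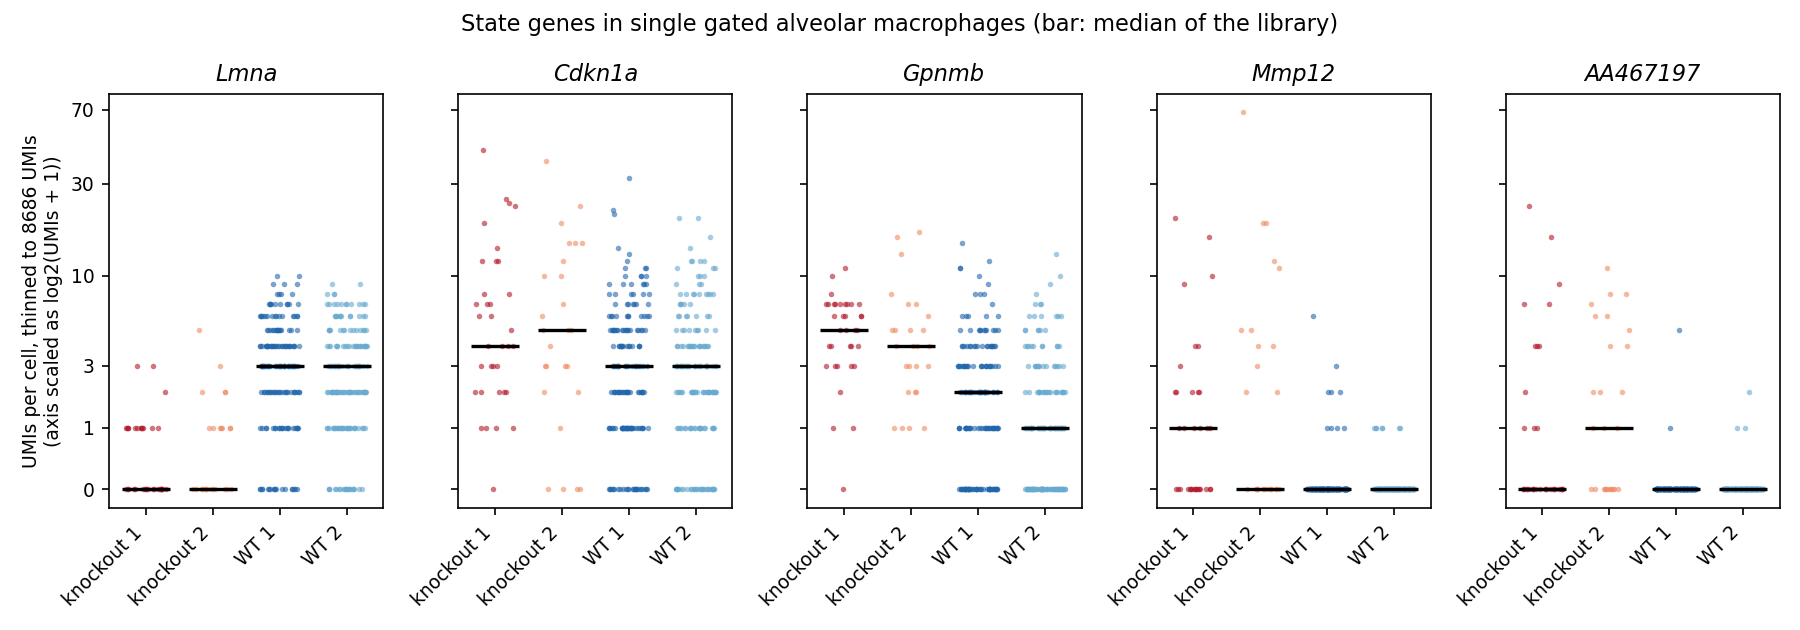
UMIs of Lmna, Cdkn1a, Gpnmb, Mmp12 and AA467197 in single gated cells thinned to 8686 UMIs, with the 2 knockout libraries left of the 2 WT libraries, 1 point per cell, on an axis scaled as log2(UMIs + 1) and bars at library medians. Lmna points pile up at 0 in knockout, Gpnmb has higher medians in knockout while its highest cells overlap, and Mmp12 and AA467197 spread from 0 up to 68 and 23 UMIs in knockout cells.

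Mmp12 and AA467197 were often detected in the same cells. Of 35 thinned cells in knockout 1, 11 had both, 8 had 1 of them and 16 had neither. Of 26 in knockout 2, 10 had both, 7 had 1 and 9 had neither. In WT no cell of 180 and none of 176 had both, which allows a share of cells with a UMI of both of up to 1.67% in WT 1 and 1.70% in WT 2 at this depth. Mmp12 was found in 9 and AA467197 in 2 cells of WT 1, and in 7 and 3 cells of WT 2, so few WT cells could have held both. Across cells the Spearman correlation of their thinned counts was 0.56 in knockout 1 (35 cells) and 0.68 in knockout 2 (26 cells), given as a description, since cells of 1 library share their preparation. Either gene was found in 54.3% of cells in knockout 1 and 65.4% in knockout 2, against 6.11% in WT 1 and 5.68% in WT 2.

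The other pairs among the 5 genes were weaker, and the highest value among them was that of Cdkn1a against Mmp12 in knockout 2, 0.30, where knockout 1 gave -0.02. Lmna against AA467197 gave 0.24 in knockout 1 and -0.05 in knockout 2, and Lmna against Gpnmb -0.07 and -0.29. For none of these 3 pairs did the libraries give correlations of like size. Of the cells with both Mmp12 and AA467197, 10 of 11 in knockout 1 and 9 of 10 in knockout 2 also had Cdkn1a and Gpnmb, beside 33 of 35 and 22 of 26 among all thinned knockout cells.

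**Figure D2:**
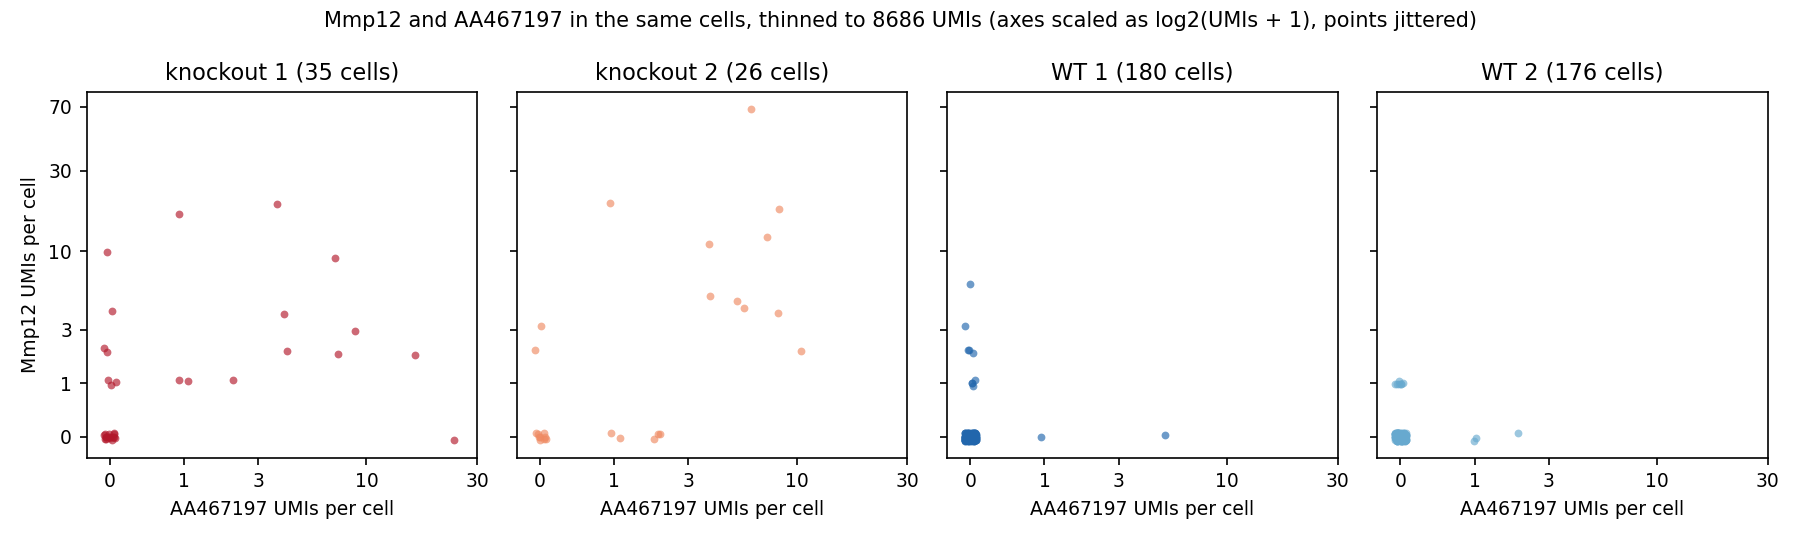
Mmp12 UMIs against AA467197 UMIs in single gated cells thinned to 8686 UMIs, 1 panel per library with knockout left of WT, axes scaled as log2(UMIs + 1) and points jittered by less than 0.1 on that scale. Cells with both genes number 11 of 35 and 10 of 26 in the knockout libraries and 0 in both WT libraries.

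The 15 genes whose counts varied most between knockout cells were partly genes that also vary between WT cells. Among 2432 genes with a mean of at least 0.5 UMI per thinned cell in both knockout libraries, the median variance over mean was 1.14 in both, against 1.14 and 1.12 for the same genes in WT. Ranked by the smaller value of the 2 knockout libraries, Fth1, the ferritin heavy chain that stores iron, came first at 35.7 and 35.9, against 26.3 and 29.3 in WT. Mt1, a metal-binding metallothionein, reached 23.9 and 59.0 in knockout and 48.2 and 74.1 in WT, with medians of 3 and 5 UMIs and highest cells of 67 and 125 UMIs in knockout. Cxcl2, a neutrophil-attracting chemokine, was uneven to a like degree in both genotypes at 25.6 and 23.3 in knockout and 29.99 and 29.0 in WT. Of the 15 genes, 9 were also among the 15 most variable in WT.

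Some of the 15 had a larger variance over mean in knockout. Tmsb4x, an actin-binding peptide, had 29.1 and 21.8 in knockout and 7.55 and 8.87 in WT. Actb, cytoskeletal actin, had 28.7 in both knockout libraries and 14.3 and 12.5 in WT. Ier3, a stress-induced regulator of survival, had 21.1 and 12.96 in knockout and 6.81 and 3.29 in WT, and its median was 0 in each library. Crip1, a small LIM-domain protein, had 17.4 and 18.2 in knockout and 14.97 and 10.4 in WT, but its mean was higher in knockout, and its variance over the squared mean was 1.11 and 0.917 in knockout and 1.82 and 1.38 in WT. For Actb and Tmsb4x that ratio too was larger in knockout, at 0.211 and 0.202 for Actb and 0.138 and 0.115 for Tmsb4x in knockout, against 0.111 and 0.0971 and 0.0564 and 0.056 in WT. Cdkn1a ranked 15th, and Mmp12, with 8.94 and 32.4, ranked 18th. AA467197 ranked 53rd with 10.9 and 4.04, Lmna 688th with 1.16 and 1.78, and Gpnmb 738th. The rest of the 15 were Chil3, Lyz2, Ccl6, Malat1, Ftl1, Apoe and Cxcl3, with values from 11.2 to 45.1 in knockout. No test was made of these values, and highly expressed genes show extra variance most readily.

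Knockout cells with more Cdkn1a also had more RNA of some other p53 targets and of immediate early genes, and less of several alveolar macrophage genes. Cells were split at the median thinned Cdkn1a count of 5, which put 16 cells of knockout 1 and 11 of knockout 2 in a high group and 19 and 15 in a low group, and unthinned counts were summed per library and group. With library as a block, edgeR's quasi-likelihood test called 131 of 4195 genes (3.12% of genes tested), 82 higher (1.95%) and 49 lower (1.17%) in the high cells. That fit has few residual degrees of freedom, and the groups are made of cells of the same library. In the splits by Cdkn1a, Mmp12 and AA467197, edgeR took the spread beyond the model as shared by all genes. A gene whose difference rests on a single cell can therefore be called. For these reasons p-values are not printed, both libraries' values are given, and counts of called genes in these splits are a description. Of the called genes, 24 were at least 2-fold higher and 11 at least 2-fold lower in both libraries. Median depth was 17180.5 and 17931 UMIs in the high groups and 13815 and 16252 in the low groups, and its part in these differences was not tested beyond thinning before the split.

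Phlda3, a p53 target that restrains AKT signalling, was detected after thinning in 13 of 16 high cells and 5 of 19 low cells in knockout 1, and in 9 of 11 high and 4 of 15 low cells in knockout 2. Its summed level was 348 CPM in the high group and 56.3 in the low group of knockout 1, and 253 and 107 CPM in knockout 2. Mdm2, the ubiquitin ligase that degrades p53, was detected in 13 of 16 high and 10 of 19 low cells in knockout 1 and in 6 of 11 and 2 of 15 in knockout 2. Both genes kept the direction in each library when the cell with the most UMIs was left out. Of 10 measured p53 targets other than Cdkn1a, 4 were called higher and 0 lower, and 7 were above 0 and 0 below 0 in both libraries. Among all 4195 genes 1231 were above 0 and 1174 below 0 in both libraries. Bax, a pore-forming death effector and also a p53 target, was not called, with 309 against 293 CPM in knockout 1 and 317 against 302 in knockout 2.

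Genes of the immediate response to stimuli went with Cdkn1a as well. Of 17 measured immediate early genes 8 were called higher and 0 lower, and of 17 inflammatory cytokines and NF-kB targets 5 were called higher and 0 lower. Dusp1, a phosphatase that shuts off MAP kinases, stood at 965 CPM in the high group and 514 in the low group of knockout 1, and at 1161 and 333 in knockout 2. Srgn, the granule proteoglycan serglycin, stood at 722 and 319 CPM in knockout 1 and 1037 and 298 in knockout 2. Cd74, the chaperone of MHC class II, stood at 54.7 and 22.5 CPM in knockout 1 and 613 and 129 in knockout 2. In knockout 1 it was detected in 6 of 16 high and 3 of 19 low cells, with at most 2 thinned UMIs. Cxcl2 differed between libraries, with 1257 against 1062 CPM in knockout 1 and 2983 against 311 in knockout 2. In knockout 1 it was detected in 8 of 16 high and 12 of 19 low cells. The ratio of its thinned means there was 1.35 with the highest cell and 0.959 without it. Ier3 rested on a single cell in knockout 1. There it was detected in 5 of 16 high and 4 of 19 low cells, and the ratio of thinned means was 5.6 with its highest cell and 0.724 without it, while in knockout 2 it was 6.52 with the highest cell and 3.83 without it.

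Mcemp1, a membrane protein of alveolar macrophages and mast cells, was lower where Cdkn1a was high, with median thinned counts of 1 in the high and 6 in the low group of knockout 1 and 2 and 4 in knockout 2. Tfec, a transcription factor of the MITF family, was detected in 7 of 16 high and 14 of 19 low cells in knockout 1 and in 3 of 11 and 13 of 15 in knockout 2. Cd52, Tgfbi and Lpl, the last of which splits lipoprotein fat, were also lower, at 207 against 503, 336 against 529 and 1289 against 2068 CPM in knockout 1, and at 333 against 587, 226 against 622 and 1285 against 2214 CPM in knockout 2. Of 26 measured genes of the alveolar macrophage signature, 0 were called higher and 6 lower, with 5 above and 16 below 0 in both libraries. Marco, a scavenger receptor, is a gate gene and is given as a description only, with medians of 3 and 9 in knockout 1 and 2 and 10 in knockout 2. Gpnmb and left-over Lmna were not called in the Cdkn1a split, with Gpnmb at 578 against 578 CPM in knockout 1 and 581 against 591 in knockout 2, and Lmna at 66.4 against 60.1 and 102 against 84.5 CPM. AA467197 was called higher, at 430 against 199 CPM in knockout 1 and 409 against 307 in knockout 2. It was detected in 7 of 16 high and 5 of 19 low cells in knockout 1, and in 7 of 11 and 8 of 15 in knockout 2.

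Knockout cells with Mmp12 had more Crip1, Cd14, Cxcl2 and Cxcl3 RNA and less Lpl and Fabp1. The median thinned Mmp12 count over knockout cells was 0, so the split was between 18 cells with and 17 without Mmp12 in knockout 1, and 12 with and 14 without in knockout 2. Cells with Mmp12 were deeper, with medians of 17468 and 19791 UMIs against 13638 and 15068 without it, and the part of depth was not tested. The same fit called 93 of 3882 genes (2.4%), 64 higher (1.65%) and 29 lower (0.747%). Crip1 was 2830 CPM with Mmp12 and 1060 without it in knockout 1, and 3659 and 1519 CPM in knockout 2. Its median thinned count was 15.5 against 7 UMIs in knockout 1 and 26 against 11 in knockout 2, so the median cell differed as well as the sum. Cd14, a receptor that takes up lipopolysaccharide, was 440 against 245 CPM in knockout 1 and 953 against 225 CPM in knockout 2. Cxcl2 was 1719 against 495 CPM in knockout 1 and 2000 against 1038 CPM in knockout 2, detected in 14 of 18 against 6 of 17 cells and in 7 of 12 against 8 of 14. Cxcl3, a related chemokine, was 255 against 43.8 CPM and 754 against 143 CPM, though in knockout 1 it was detected in 5 of 18 against 2 of 17 cells with a median of 0 in both groups. Cdkn1a was 1296 against 718 CPM in knockout 1 and 1412 against 685 CPM in knockout 2. In knockout 1 its median was 5 against 4 thinned UMIs, and the ratio of thinned means was 1.58 with the highest cell and 1.26 without it. In the split by Cdkn1a, Mmp12 was called higher, at 355 against 353 CPM in knockout 1 and 1285 against 400 CPM in knockout 2. The ratio of its thinned means was 0.650 in knockout 1. In knockout 2 that ratio was 3.20 with the highest cell, which held 68 thinned UMIs, and 1.30 without it. In the split by Mmp12, AA467197 was 391 against 223 and 607 against 86.9 CPM.

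Lpl was 1251 CPM with Mmp12 and 2290 without it in knockout 1, and 1237 and 2434 CPM in knockout 2. Fabp1, a fatty acid carrier that alveolar macrophages express, was 164 against 499 CPM and 242 against 414 CPM. Ncoa4, the receptor that delivers ferritin to lysosomes, was 241 against 521 CPM in knockout 1 and 242 against 476 in knockout 2. Mt1 was lower in both libraries in sums, but without the single highest cell its ratio in knockout 1 turned from 0.700 to 1.49, so its direction there rests on 1 cell. Of 26 signature genes 1 was called higher and 3 lower, with 4 above and 16 below 0 in both libraries. Among all 3882 genes 1128 were above and 1031 below 0 in both libraries. Of 10 p53 targets other than Cdkn1a none was called, and Phlda3 stood at 196 against 210 CPM and 204 against 143 CPM.

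The split by AA467197 drew on many of the same cells as that by Mmp12. In knockout 1 it put 12 cells with AA467197 against 23 without, and in knockout 2 15 against 11. Median depth was 18401 and 17931 UMIs with AA467197 and 13692 and 15118 without it, and its part was not tested. The fit called 100 of 4107 genes (2.43%), 60 higher (1.46%) and 40 lower (0.974%), but 26 when genes needed at least 20 counts over the 4 sums in place of the filter used. Mmp12 was detected in 11 of 12 cells with AA467197 and 7 of 23 without it in knockout 1, and in 10 of 15 and 2 of 11 in knockout 2. Crip1 was 3379 against 1110 CPM in knockout 1 and 3109 against 1712 CPM in knockout 2. Srgn was 932 against 241 CPM and 812 against 321 CPM, and Hilpda, which blocks fat breakdown in lipid droplets, 239 against 86.9 and 373 against 65.6 CPM. Fabp4, a fatty acid carrier, was 225 against 399 CPM in knockout 1 and 92.4 against 354 CPM in knockout 2, but in knockout 1 it was detected in 8 of 12 cells with AA467197 and 11 of 23 without, with medians of 1 and 0 thinned UMIs, and 1 cell without AA467197 held 20. Ndufa4, a respiratory chain subunit, was 229 against 515 CPM and 165 against 380 CPM. Mt2 pointed opposite ways in the 2 libraries, with 90.8 against 74.0 CPM in knockout 1 and 11.5 against 354 in knockout 2, and in knockout 2 a single cell held 27 of the thinned UMIs. Of 29 measured lysosome genes 5 were called higher and 0 lower, with 18 above and 2 below 0 in both libraries. Of 26 signature genes 1 was called higher and 7 lower, with 3 above and 12 below 0 in both libraries. The lipid-associated macrophage list was mixed, with 5 of 17 called higher and 4 lower. Among all 4107 genes 1139 were above and 1116 below 0 in both libraries.

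**Figure D3:**
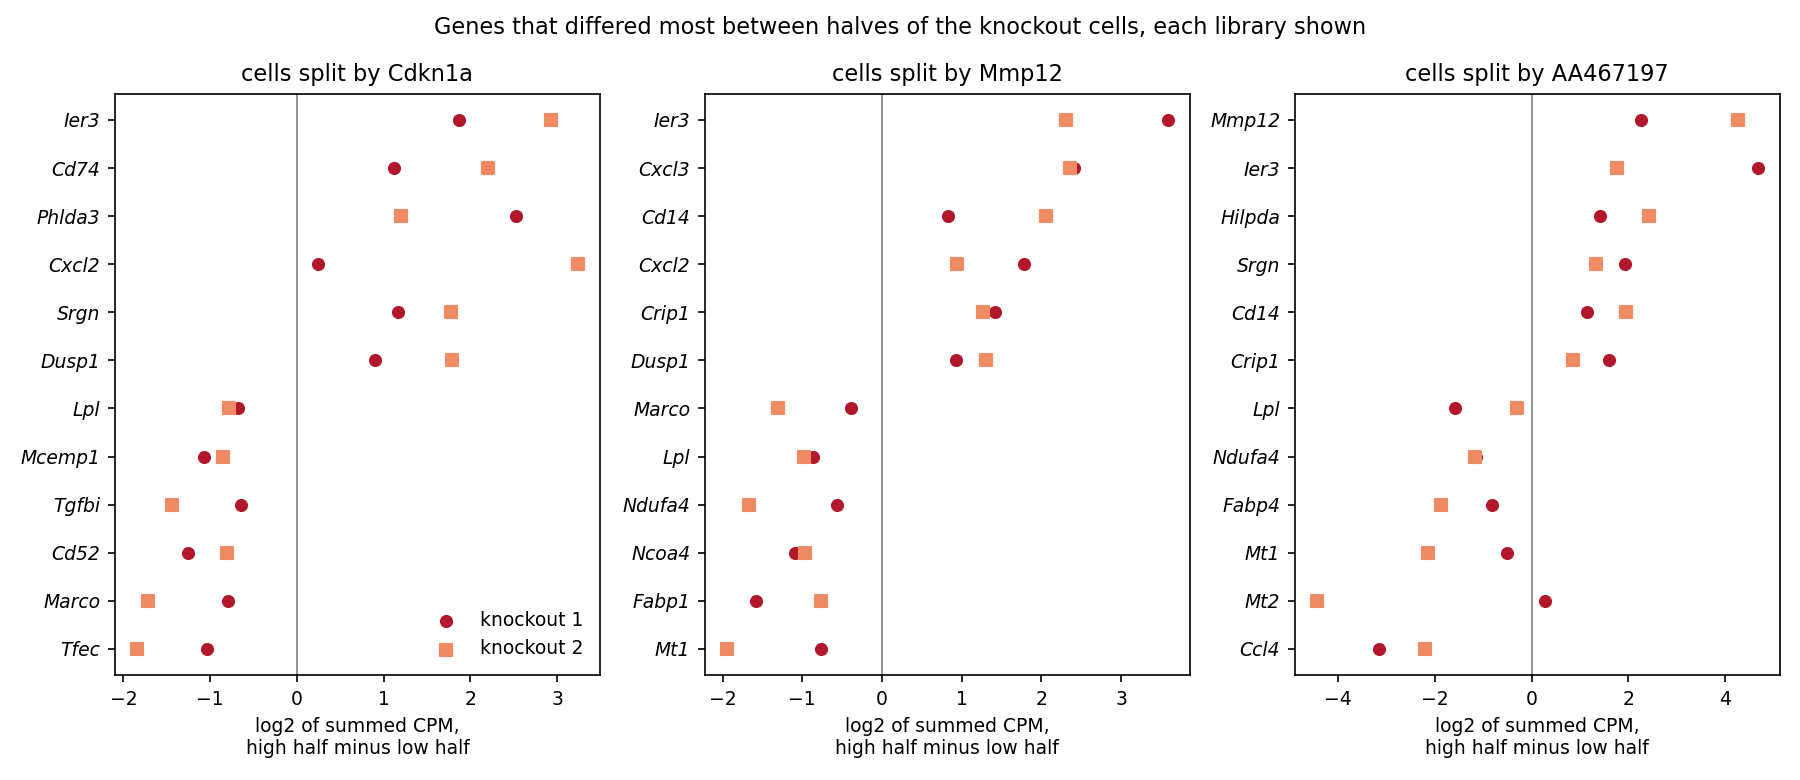
Log2 difference of summed CPM between high and low groups of knockout cells, split by Cdkn1a, Mmp12 or AA467197, for the genes of smallest p in each direction, with knockout 1 as circles and knockout 2 as squares and 5 CPM added before the log. The libraries share a direction for every gene drawn except Mt2 in the split by AA467197. Marco is one of the genes that chose the cells.

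No gene was called between knockout cells with and without left-over Lmna. The split put 15 cells with and 20 without Lmna in knockout 1 and 12 with and 14 without in knockout 2, and 0 of 4083 genes were called (0.0%), with 163 at an unadjusted p under 0.05. Median depth was 16205 and 15653 UMIs with Lmna and 15178 and 17231 without. With 0 to 5 thinned UMIs per cell, a cell without a UMI cannot be told from one with little RNA, and 53 of the 61 cells lay within 1 UMI of the dividing count. The planned split by Gpnmb was not fitted, since its high group had 7 cells in knockout 2, under the minimum of 8.

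Across all gated cells, more genes of the lysosome and p53 target lists rose than fell in knockout, and more immediate early genes fell than rose. Summed per library, 8817 genes were tested with edgeR's quasi-likelihood test, 2 knockout against 2 WT libraries, and 538 passed a Benjamini-Hochberg adjusted p of 0.05 (6.1%), 299 higher (3.39%) and 239 lower (2.71%). Libraries of the genotypes did not overlap for 50.8% of genes. With library totals only in place of TMM scaling the split was 223 higher and 320 lower. Without WT 1 it was 120 and 133, and without WT 2 it was 161 and 146. The log2 fold changes below are knockout minus WT with their standard errors.

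Cathepsin K (Ctsk, chr3:95499256-95509362), a lysosomal collagen-degrading protease, stood at 1307 and 1386 CPM in knockout and 278 and 289 CPM in WT (2.25 ± 0.12, adjusted p = 2.2e-11). Cd63 (chr10:128900989-128912822), a tetraspanin of late endosomes, stood at 637 and 587 CPM in knockout and 153 and 120 CPM in WT (2.17 ± 0.14, adjusted p = 6.8e-10). Phlda3 (chr1:135766119-135769136) stood at 192 and 161 CPM in knockout and 39.4 and 32.6 CPM in WT (2.29 ± 0.18, adjusted p = 1.3e-08). All 3 lay apart in the genotypes by several times the gap between replicates. Ch25h, which makes 25-hydroxycholesterol, stood at 345 and 347 CPM in knockout and 122 and 127 in WT, and Rgs1, a brake on chemokine receptor signalling, at 491 and 446 in knockout and 201 and 163 in WT. Anpep, an aminopeptidase of the cell surface, stood at 40.4 and 56.6 CPM in knockout and 4.27 and 3.26 in WT. Plpp3, a lipid phosphatase, was 45.4 and 29.4 CPM in knockout and 2.75 and 0.362 in WT. Aig1, Crip1, Chchd10, S100a4 and Tspo were the rest of the 14 genes of smallest p that rose, with log2 fold changes from 1.07 to 2.07.

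Cpne5 (chr17:29155556-29238167), a calcium-dependent membrane-binding copine, fell most clearly, to 30.3 and 27.2 CPM in knockout against 230 and 214 CPM in WT (-2.94 ± 0.22, adjusted p = 4.9e-09). Nfkbiz, an inducible cofactor of NF-kB, fell to 50.4 and 47.6 CPM in knockout against 176 and 160 CPM in WT (-1.77 ± 0.20). Both were lower in both knockout libraries than in either WT library, which the choice of genes by smallest p required. Tnf, the inflammatory cytokine, stood at 129 and 220 CPM in knockout and 441 and 458 in WT, and Cidec, a lipid droplet protein, at 128 and 102 in knockout and 264 and 291 in WT. Fn1 stood at 192 and 288 CPM in knockout and 602 and 767 in WT, beside monocyte markers that were lower in knockout as given above, and the part of those cells in it was not tested. Tnfaip2, Nav2, Ramp1, Malat1 and Dock2 also fell, with log2 fold changes from -1.57 to -0.84. Rpl39 fell too (-0.87), but it is a ribosomal protein gene with near-identical copies in the genome that can share reads.

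Of 20 measured p53 targets other than Cdkn1a, 6 rose and 1 fell, with a median log2 fold change of 0.41 against -0.00 over all genes. Ccng1, a cyclin that p53 induces, stood at 170 and 181 CPM in knockout and 92.1 and 85.5 in WT, and Bax at 281 and 288 in knockout and 165 and 168 in WT. Ei24, Mdm2 and Zmat3 rose as well, and Btg2, which is also an immediate early gene, fell. Bax rose in knockout but was not called in the split by Cdkn1a, whereas Phlda3 and Mdm2 were called higher in both.

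Of 32 measured lysosome genes 12 rose and 0 fell (median 0.34). Ctsd, an aspartic protease, stood at 6540 and 5912 CPM in knockout and 3266 and 3463 in WT, and Psap, the precursor of saposins that help break down sphingolipids, at 4434 and 4601 in knockout and 2749 and 2908 in WT. Ctsb, Ctsl, Ctsz, Npc2, Lamp1, Cd68 and Atp6v1a also rose. The list of the lipid-associated macrophage state, which shares 5 of these genes, had 7 risen and 1 fallen of 17 measured beyond Gpnmb and Mmp12 (median 0.49). Lgals3, galectin-3, stood at 3854 and 3409 CPM in knockout and 2497 and 2079 in WT, and Cd36, a fatty acid and scavenger receptor, fell to 207 and 227 CPM in knockout against 361 and 267 in WT.

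Of 19 measured immediate early genes 9 fell and 1 rose (median -0.59). Fos stood at 905 and 698 CPM in knockout and 1233 and 1100 in WT, Nr4a1 at 94.2 and 165 in knockout and 368 and 277 in WT, and Socs3, a cytokine feedback inhibitor, rose to 53.8 and 63.4 CPM in knockout against 22.3 and 23.2 in WT. Within knockout 8 genes of the same list were higher in the cells of high Cdkn1a, so its direction between genotypes and its direction between knockout groups were opposite. Of 18 inflammatory cytokines and NF-kB targets 3 fell (Nfkbiz, Tnf and Tnfaip3) and 1 rose, the chemokine Ccl6, at 10787 and 9390 CPM in knockout and 5500 and 5214 in WT.

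Most identity genes did not pass the test, and more of those that did were lower than higher. Of 27 measured signature genes 6 fell and 3 rose (median -0.16). Both shares were larger than those over all genes tested, 2.71% lower and 3.39% higher. Mrc1, the mannose receptor, stood at 772 and 786 CPM in knockout and 1153 and 1093 in WT, Ear2 at 1180 and 1293 in knockout and 1792 and 1875 in WT, and Lyz2, lysozyme, rose to 20312 and 17953 CPM in knockout against 12839 and 13254 in WT. In the list of GM-CSF, TGF-beta and PPAR-gamma, without the gate gene Car4, 3 of 16 fell and 0 rose. Pparg stood at 95.8 and 90.6 CPM in knockout and 153 and 136 in WT, Csf2ra, a chain of the GM-CSF receptor, at 192 and 186 in knockout and 261 and 275 in WT, and Zeb2 at 370 and 403 in knockout and 543 and 539 in WT. These 3 calls were each lost in several of the alternative settings. The gate genes themselves, which chose the cells, went through the same fit, and 2 of them, Marco and Car4, are among the 299 genes called higher, but nothing is read from those calls. Their levels ranged from Krt79 at 484 and 283 CPM in knockout and 505 and 561 in WT to Marco at 1076 and 1010 in knockout and 591 and 595 in WT.

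The other lists held 0 or 1 called gene each, which is not read as a result beside the 6.1% called over all genes. Of 18 genes of the nuclear lamina and envelope without Lmna 0 rose and 1 fell, Syne2, a nesprin that ties the nucleus to actin, at 42.0 and 31.7 CPM in knockout and 86.0 and 87.3 in WT. Of 17 genes of membrane repair and cytosolic DNA sensing 1 rose, the ESCRT-III subunit Chmp2b, and of 6 measured interferon-stimulated genes none was called. Of 14 G1/S genes 0 were called and of 14 G2/M genes 1 rose, Smc4. The calls of Chmp2b and Smc4 were lost in 9 and 8 of the alternative settings. Counting, per thinned cell, how many of 28 G2/M genes had a UMI, the cells reaching 5 numbered 2 of 35 and 1 of 26 in knockout, against 20 of 180 and 10 of 176 in WT, with exact 95% intervals of 0.700 to 19.2%, 0.0973 to 19.6%, 6.92 to 16.6% and 2.76 to 10.2%, so a difference in cycling cells was not detectable at this number of cells. Birc5, a mitotic gene, had 3 UMIs over both knockout libraries and 62 over both WT libraries, a WT over knockout ratio per total of 3.72 with a counting interval of 1.22 to 18.5.

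**Figure D4:**
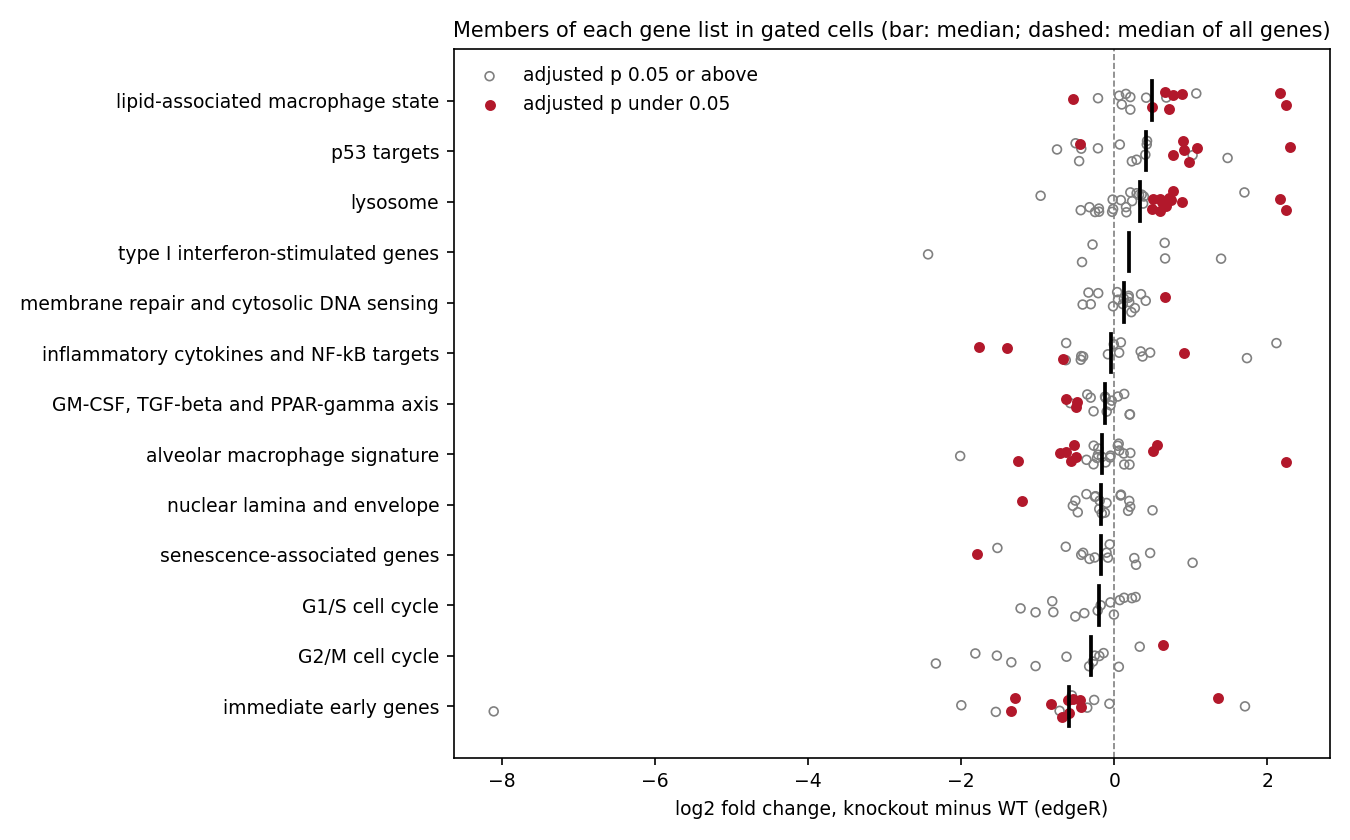
Log2 fold change, knockout minus WT, of each measured member of 13 gene lists in gated cells, without the gate genes and the 5 followed genes, filled where the adjusted p is under 0.05 and with a bar at the list's median. The lysosome list has 12 filled points, all above 0, the immediate early list has 9 below and 1 above, and the point near -8 is Egr3, which had no UMI in knockout and was not called.

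Classical monocytes of the same lungs, the closest cells with enough members, differed from alveolar macrophages in the size or sign of the knockout effect for some genes. They were taken as kept cells with Ly6c2 and Ccr2, without C1qa, Cd79a or Cd3e, with under 10 UMIs of S100a8 and at most 1 gate gene. These numbered 293 and 311 in knockout libraries and 243 and 290 in WT libraries. In 1 fit with library as a block, the knockout effect differed between gated cells and monocytes for 135 of 8476 genes (1.59%), 62 more positive and 73 more negative in gated cells, but for 5 genes without WT 1 and 6 without WT 2. Lmna stood at 8.97 and 15.4 CPM in knockout monocytes and 12.6 and 10.2 in WT monocytes, so its level was low there in both genotypes, and the difference of effects was -2.38 ± 0.30. Crip1 was 1863 and 2422 CPM in knockout and 941 and 972 in WT alveolar macrophages, and 2237 and 2602 in knockout and 3112 and 3251 in WT monocytes (difference 1.54 ± 0.11, called in every setting run). Nfkbiz stood at 162 and 158 CPM in knockout monocytes and 125 and 142 in WT monocytes (difference -2.04 ± 0.22). For Cdkn1a, at 292 and 187 CPM in knockout and 198 and 258 in WT monocytes, the difference was 1.14 ± 0.26 and did not pass (adjusted p = 0.113). AA467197 had 216 UMIs in monocytes of knockout 1 and 23 in those of knockout 2, against 3 and 2 in WT monocytes, and its difference of 0.98 ± 5.12 could not be estimated with any precision. Gpnmb and Mmp12 had too few counts in monocytes to be tested, with 1 and 3 Gpnmb UMIs in knockout and 0 and 1 in WT, and 5 and 19 Mmp12 UMIs in knockout and 2 and 6 in WT.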

How the data were processed

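Live CD45.2+ lung cells of 2 knockout and 2 WT mice were measured as single cells with the Chromium 3-prime v3 kit, per the labels' protocols. The authors deposited raw UMI counts per gene and barcode, 1 matrix per library, and per the submitters' processing notes used Cell Ranger 3.0.2, Seurat 3.0.0 and the genome mm10. The annotation they used is not given in the sources used here. Total UMIs were 21780914 and 21849805 in knockout libraries and 26433722 and 27045250 in WT libraries. The gate, gene lists and followed genes were chosen with earlier results of these data known.

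UMIs were summed per library over gated cells and tested with edgeR 4.0.16 (robust quasi-likelihood, filterByExpr, TMM, Benjamini-Hochberg over all genes tested), with genotype only. Errors beside log2 fold changes are standard errors of that fit, and CPM use TMM-scaled totals except where named unscaled and except for marker sums. Knockout cells were split at the median thinned count of a gene and the resulting groups summed per library. Free RNA was not subtracted. Doublets were scored against simulated ones, and the top 0.8% per 1000 cells were left out as an alternative only; 0 gated knockout cells and 4 gated WT cells were so scored. P-values measure the spread between 2 libraries per genotype. Replicate libraries differed beyond counting noise (chi-square per degree of freedom 1.90 in knockout and 3.00 in WT). The labels do not say that replicate numbers pair the samples, so no pairing was used. The correlation of deviations between libraries of like number was -0.0025, but 2 libraries per genotype cannot settle whether they share a batch. Calls fell with a replicate block, as given below.

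Genes named are the 5 followed and 6 gate genes, the 14 of smallest p in each direction with a mean of 20 CPM or more in whichever genotype was higher and libraries that did not overlap, up to 4 members of each list by p, up to 6 genes in each direction of each split and of the difference from monocytes, and the 15 most variable genes. A few genes that the rule picks are not reported here. Sex-linked, immunoglobulin, T cell receptor, hemoglobin, mitochondrial and unnamed model genes were left out. Other called list members are named to complete a count, and Fabp4, Bax, Ccng1 and others beyond these limits were chosen after their values were seen. Coordinates come from GENCODE M21 (GRCm38, the same build as mm10) and promoter sequences from RefSeq on GRCm38.p6, which matched all 5 followed genes. Alternatives were DESeq2 1.42.0, library totals, other filters, gates, mitochondrial limits, thinning depths, a replicate block and each library left out, and the exclusions of shallow cells and of the Cd79a and Cd3e rule were added after seeing the data.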

Additional observations from a re-analysis of the deposited data

Results flagged for a closer look

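The knockout effect differed between alveolar macrophages and classical monocytes of the same libraries for the following genes, by a test of the difference itself in 1 edgeR fit (adjusted p under 0.05 over 8476 genes). Values are the log2 effect in alveolar macrophages minus that in monocytes. It was more positive in alveolar macrophages for Crip1 (1.54), S100a4 (1.61), Rps27l, a p53-induced ribosomal protein (1.08), Ccl6 (0.86), Rgs1 (1.32) and Mpc1, the mitochondrial pyruvate carrier (1.18). It was more negative for Nfkbiz (-2.04), Hmox1, heme oxygenase (-1.86), the MHC class II chain H2-Eb1 (-2.73), the chemokine Ccl17 (-5.29), Lmna (-2.38) and the immediate early factor Egr1 (-1.67).

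Of these, Crip1 passed without either WT library, Nfkbiz passed without WT 2 but not without WT 1, and S100a4, Rps27l, Ccl6, Rgs1, Mpc1, Hmox1, Ccl17, Lmna and Egr1 passed neither without WT 1 nor without WT 2. H2-Eb1 was not among the genes tested there. It had 3 and 9 UMIs in knockout alveolar macrophages and 56 and 143 in WT ones. In monocytes it stood at 321 and 1188 CPM in knockout and 145 and 482 in WT, so replicates differed widely. Its knockout effect was not called in either cell type alone. Ccl17 rose in both cell types, to 60.5 and 38.5 CPM in knockout alveolar macrophages against 14.3 and 9.06 CPM in WT ones, and to 96.2 and 59.8 CPM in knockout monocytes against 0.900 and 0 CPM in WT ones. Its difference is a fitted value that depends on a library at 0. Hmox1 stood at 75.7 and 95.1 CPM in knockout and 160 and 162 CPM in WT alveolar macrophages, and at 92.2 and 129 CPM in knockout and 58.5 and 56.2 CPM in WT monocytes, so its means moved in opposite directions.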

How the results depend on the processing

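The genes higher and lower in knockout numbered 299 and 239. Among the genes carried through the settings, no sign of a called gene turned. These were the followed and gate genes, the genes of smallest p overall and per list, and those named for the difference from monocytes. Other called genes named here, such as Psap and Ctsl, were not carried through. In the splits only the followed genes were. Genes lower numbered 386 with no filter beyond 1 count. Leaving out gated cells flagged for markers of other types gave 220 higher and 181 lower. The counts were 123 higher and 86 lower with a replicate block, 164 and 144 with mitochondrial UMIs at most 5%, 116 and 90 with DESeq2, and, leaving out 1 library each, 120 to 415 higher and 133 to 334 lower. The cause was not tested.

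The mean WT gated share of 5.0% was 4.42% with 5 of 6 gate genes, 5.18% with 3, 5.11% without doublet-scored cells, 5.33% with cells thinned to 3000 UMIs and 5.84% without the Cd79a and Cd3e rule, and the share stayed 3.92-fold to 6.91-fold lower in knockout under every setting run. Genes called in the split by Lmna numbered 3 with at least 20 counts over the sums and 4 with unthinned counts as a share of the cell's total. In the split by AA467197 they numbered 26 and 60 under those settings, and in the split by Cdkn1a 53 with unthinned counts.

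Shares of cells with a UMI moved with depth. Thinned to 5014 UMIs, they were, in knockout, 31.4% for Lmna, 91.7% for Gpnmb and 42.3% for Mmp12, and, in WT, 78.1% for Lmna, 73.3% for Cdkn1a, 55.9% for Gpnmb, 3.18% for Mmp12 and 0.802% for AA467197. At 12072 UMIs they were 57.3% for Mmp12 in knockout and, in WT, 95.5% for Lmna, 90.0% for Cdkn1a, 76.7% for Gpnmb, 6.16% for Mmp12 and 2.08% for AA467197. Unthinned they were, in knockout, 52.0% for Lmna, 93.6% for Gpnmb and 57.6% for Mmp12, and, in WT, 93.4% for Lmna, 90.5% for Cdkn1a, 73.9% for Gpnmb, 7.17% for Mmp12 and 2.04% for AA467197.

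The difference from monocytes called 135 genes, and 5 to 172 with 1 library left out. Of single-gene results 1216 were counted as unchanged, 84 lost a call and 38 gained one, and Chmp2b, Csf2ra, Pparg and Smc4 lost it in 8 or 9 settings. The 1216 include split results with 1 knockout library left out. Those have no p-value and were counted as unchanged unless a called gene turned sign. The 15 most variable genes shared 13 with those at 12072 UMIs. The comparison with C1q-high macrophages (under 25 cells per library) and the split by Gpnmb were not run. With 73 knockout cells, only large differences in shares could be seen.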

Other observations

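Among the deposited barcodes, cells that met the gate but carried Cd79a or Cd3e UMIs numbered 3 and 7 in knockout libraries and 32 and 34 in WT libraries. With them the gated share was 1.33% and 0.919% in knockout and 5.76% and 5.93% in WT.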
